A study of Mus musculus with 24 samples.

Results

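The genes Kcnip1, Kcnip2, Kcnip3 and Kcnip4 encode the Kv4 channel interacting proteins, and their H3K27ac peaks were taken as every row of the deposited peak matrix whose gene column names 1 of the 4 genes. The rule gave 124 peaks of 144154. Kcnip1 had 29 of them, Kcnip2 24, Kcnip3 10 and Kcnip4 61. The genes were selected on the drug difference measured at a Kcnip4 peak in these same data (HDACi against Veh), so their drug values are given below as a description without a test, and the tests concern the foot shock and its combination with the drug.

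The libraries came from the dentate gyrus of the hippocampus, per the tissue label, of male C57BL/6 mice aged 12 weeks (the titles say hippocampus only). Nuclei were sorted for NeuN, a nuclear protein of most mature neurons, and chromatin was immunoprecipitated with an antibody against acetylated lysine 27 of histone H3 (H3K27ac), a mark of active promoters and enhancers. The labels name no engineered allele. All mice received an intraperitoneal injection 1 h before behaviour: the 2 HDACi groups got CI-994, which blocks class I histone deacetylases, at 30 mg/kg, and the 2 Veh groups its vehicle. In contextual fear conditioning (CFC) the mouse explored a chamber for 3 min and then received 2 foot shocks of 1 s at 0.2 mA, while Context mice spent the same time in the chamber unshocked. Tissue was taken 1 h later. Crossing drug (HDACi or Veh) with behaviour (CFC or Context) gives 4 groups of 3 H3K27ac libraries each, and 12 input libraries were not analysed here. Behaviour was assigned by cage, and an effect of the shock cannot be told apart from one of the cage. Since the labels do not say that each library is a separate animal, the p-values measure only the spread between these libraries.

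Kv4 channels carry the A-type potassium current, a fast, transient outward current that damps dendritic excitation and back-propagating spikes. The interacting proteins are cytoplasmic calcium-binding subunits with EF hands that bind the Kv4 pore subunits, raise the number of channels at the cell surface and shift their gating. Kcnip3 is also known as DREAM or calsenilin, a calcium-regulated DNA-binding repressor, and Kcnip4 has isoforms that slow channel inactivation.

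Totals in peaks ran from 6639158 to 16734757 reads per library, and levels are given as CPM, read counts scaled to each library's reads in peaks with the TMM factors. Promoter peaks, those with an edge within 1000 bp of the start site of the named gene, held 24.9 to 26.7% of the reads in the CFC libraries and 18.3 to 22.5% in the Context libraries. Of the marker genes, the 4 neuronal ones had promoter peaks with a median of 6.63 CPM per kb and the 4 granule neuron ones 5.36, while endothelial markers had no promoter peak and of 6 interneuron markers only Gad1 had one. The summed promoter level of the 4 oligodendrocyte markers was 8.48 to 15.1 CPM per kb in CFC against 5.44 to 8.16 in Context, that of the 2 precursor markers 4.41 to 7.81 against 3.18 to 3.69, that of the 4 microglial markers with a promoter peak 8.48 to 18.1 against 5.95 to 9.96, and that of the 3 astrocyte markers with one 9.49 to 12.8 against 7.03 to 10.4. The 3 CA pyramidal markers with a promoter peak summed to 10.3 to 15.5 against 4.56 to 8.06. The 4 granule neuron markers summed to 20.1 to 30.2 against 13.8 to 22.2, and the 4 neuronal ones to 23.2 to 29.2 against 20.2 to 26.0. These sums moved with the shock in the direction of promoter peaks in general, and their part in the results below was not tested.

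Upstream sequence is shown for start sites that lie in or next to the peaks described below, to show what kinds of promoter the 4 genes have. Each line gives the 250 bases before a RefSeq start (GRCm38.p6, minus strand for all 4 genes), 5′ to 3′, and capitals mark a motif searched on both strands.
Kcnip3, chr2:127522095-127522344, inside the most heavily acetylated promoter peak: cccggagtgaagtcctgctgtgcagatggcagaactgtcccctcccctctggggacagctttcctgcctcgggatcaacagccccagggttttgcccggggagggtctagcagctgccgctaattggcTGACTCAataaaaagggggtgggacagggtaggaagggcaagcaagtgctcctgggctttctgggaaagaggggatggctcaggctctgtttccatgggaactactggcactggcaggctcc
Kcnip4, chr5:49285660-49285909, the start around which drug differences were seen: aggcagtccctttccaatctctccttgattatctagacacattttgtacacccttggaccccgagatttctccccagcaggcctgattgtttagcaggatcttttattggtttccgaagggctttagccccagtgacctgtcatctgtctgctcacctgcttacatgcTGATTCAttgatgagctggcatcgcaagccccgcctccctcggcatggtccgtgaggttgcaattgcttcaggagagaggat
Kcnip2, chr19:45816064-45816313, partly in a peak that rose with shock: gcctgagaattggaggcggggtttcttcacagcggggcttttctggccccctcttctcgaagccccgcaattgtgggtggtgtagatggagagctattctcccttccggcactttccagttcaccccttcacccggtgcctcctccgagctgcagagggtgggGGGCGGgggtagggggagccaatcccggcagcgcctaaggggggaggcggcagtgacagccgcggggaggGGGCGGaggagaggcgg
Kcnip1, chr11:33843687-33843936, beside the peak that rose most in that gene: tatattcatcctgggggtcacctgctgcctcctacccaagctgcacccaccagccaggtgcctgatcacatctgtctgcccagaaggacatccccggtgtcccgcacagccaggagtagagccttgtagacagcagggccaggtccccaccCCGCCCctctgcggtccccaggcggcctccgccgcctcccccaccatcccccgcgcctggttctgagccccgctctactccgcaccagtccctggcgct
The first 2 each hold 1 AP-1 motif (TGANTCA), in which the Fos and Jun proteins are known to bind. The Kcnip2 sequence holds 2 GC boxes (GGGCGG) and the Kcnip1 sequence 1, here on the opposite strand. Among all 32851 RefSeq promoter windows, 6.75% hold the AP-1 motif and 32.7% the GC box. The core of a cyclic AMP response element (TGACG, in 17.8% of windows), an E-box (CACGTG, in 6.02%) and a TATA box (TATAAA, in 12.4%) were not among the letters of any of the 9 windows of the 4 genes. The G and C content was 60.0% for the Kcnip3 sequence, 51.2% for Kcnip4, 66.8% for Kcnip2 and 67.6% for Kcnip1. A motif match is a description of the letters only. The Kcnip4 start was picked by drug values already seen, and the peak containing it was not past the threshold for the drug. A link between its motif and the drug was not tested.

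The 4 genes differ in how their acetylation is laid out. Kcnip4 spans 1135620 bp of chromosome 5 (RefSeq 48389503 to 49525122) and its peaks were spread along it, 55 within the gene and 6 beyond its start. The deposited annotation calls 36 of its 61 peaks intergenic and 23 intronic, although the longest RefSeq model covers most of them. By the deposited chromatin states, 26 Kcnip4 peaks were in the control state, 20 primed enhancers, 11 active enhancers and 4 strong promoters. Kcnip1, over 364010 bp of chromosome 11, had 14 primed enhancer and 11 repressed peaks, all within the gene. Kcnip3, over 65597 bp of chromosome 2, had 2 very broad peaks of 13469 and 10187 bp. Only 4 of the 24 peaks named for Kcnip2 overlap that gene (24077 bp of chromosome 19), and the other 20 lie in its neighbour Armh3, so that values for all Kcnip2 peaks describe Armh3 more than Kcnip2.

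Per kb of peak, median levels were 2.32 CPM for Kcnip1, 3.03 for Kcnip2, 2.38 for Kcnip3 and 3.27 for Kcnip4, against 2.82 over all peaks. The highest level per kb at any of the 124 peaks was 6.93, at the Kcnip3 promoter peak chr2:127514215-127524401. The highest was 5.60 in Kcnip2, at its promoter peak chr19:45810841-45815799. In Kcnip4 it was 4.93, at chr5:49470003-49471645, which is no promoter peak, and in Kcnip1 3.74, at the intronic primed enhancer chr11:33798473-33801878.

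After the shock, acetylation fell across Kcnip4 and rose at Kcnip3. CFC was compared with Context over both drugs by edgeR's quasi-likelihood test, with Benjamini-Hochberg adjustment over 144014 peaks and a threshold of 0.05. Of the 61 Kcnip4 peaks 38 fell and 1 rose, and of the 10 Kcnip3 peaks 5 rose and 0 fell. Kcnip1 had 7 rises and 2 falls among 29 peaks, and Kcnip2 had 5 and 2 among 24. Over all peaks 21.4% rose and 19.7% fell (48.4% and 3.27% of promoter peaks, 16.7% and 22.5% of others), so that the Kcnip4 share of falls, 62.3%, was well above the background, while the shares of rises at Kcnip1 (24.1%) and Kcnip2 (20.8%) were near it. With library totals in place of TMM the split over all peaks was 25908 rises to 38010 falls, against 30813 to 28330, the median over all peaks was -0.11 in place of -0.03 on the log2 scale, and Kcnip1 then had 4 rises and 6 falls and Kcnip2 3 and 3. Kcnip4 (1 and 46) and Kcnip3 (5 and 0) kept their directions under that scaling. With 1 library left out, Kcnip1 had 4 to 7 rises and 2 to 4 falls (4 and 4 without Veh-CFC replicate 1, and 4 rises also without Veh-Context replicate 1, HDACi-Context replicate 2 or HDACi-CFC replicate 1 or 3). Kcnip2 had 3 to 6 rises, the fewest without HDACi-Context replicate 3, and 1 to 3 falls.

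**Figure D1:**
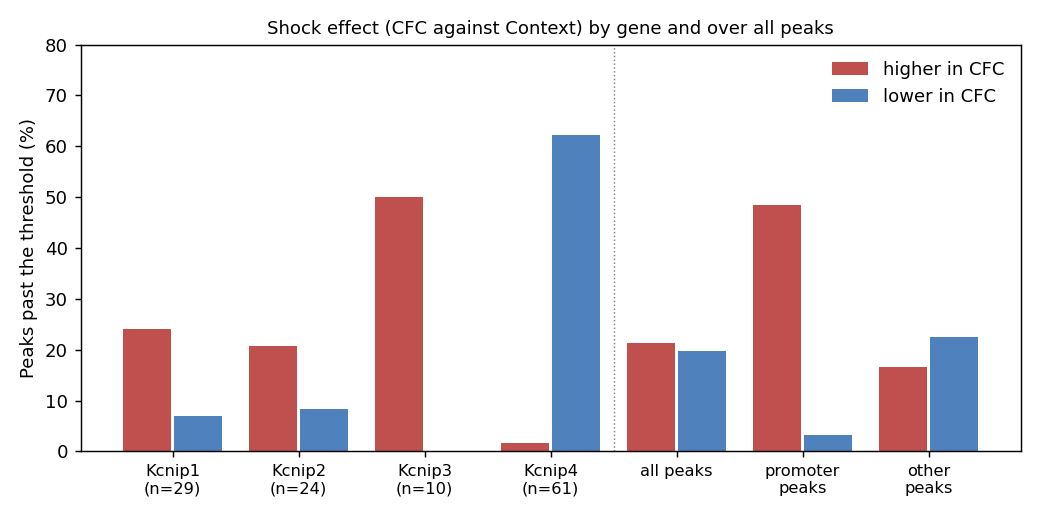
Percent of peaks past the threshold in CFC against Context over both drugs, for each Kv4 channel interacting protein gene (left of the dotted line, with its number of peaks) and for all peaks, promoter peaks and other peaks (right), red for higher and blue for lower in CFC. Kcnip4 stands at 62.3% lower and Kcnip3 at 50% higher, against 19.7% lower and 21.4% higher over all peaks.

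Summed over all peaks of a gene, the level of Kcnip4 was 398, 369 and 362 CPM in the 3 Veh-Context libraries and 239, 297 and 324 in Veh-CFC. It was 427, 516 and 546 CPM in HDACi-Context and 277, 321 and 312 in HDACi-CFC. All 6 CFC libraries were below all 6 Context libraries, and the sum fell by 0.55 ± 0.08 on the log2 scale (SE; edgeR's quasi-likelihood test, adjusted p = 1.58e-05). The Kcnip3 sum was 108, 112 and 128 CPM in Veh-Context, 167, 152 and 142 in Veh-CFC, 100, 89.3 and 78.8 in HDACi-Context and 162, 160 and 166 in HDACi-CFC. Here all CFC libraries were above all Context libraries, and the sum rose by 0.64 ± 0.07 (edgeR, adjusted p = 4.04e-06). Among 18806 gene sums 30.3% rose and 29.3% fell, so either direction is common. The share of all gene sums whose arms did not overlap was not worked out.

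The Kcnip1 sum ranged from 70.0 to 94.3 CPM in the 6 Veh libraries and from 92.5 to 113 in the 6 HDACi libraries. Its shock difference was -0.14 ± 0.06 and missed the threshold (edgeR, adjusted p = 0.052). The Kcnip2 sum lay between 184 and 238 CPM in every library, with a shock difference of 0.10 ± 0.06 (edgeR, adjusted p = 0.14). Library totals or offsets that vary with the mean level brought it past the threshold, with 0.14 and 0.19. This sum takes in the 20 peaks in Armh3. The median shock difference was 0.82 over the 4 peaks overlapping Kcnip2 and -0.06 over those 20.

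**Figure D2:**
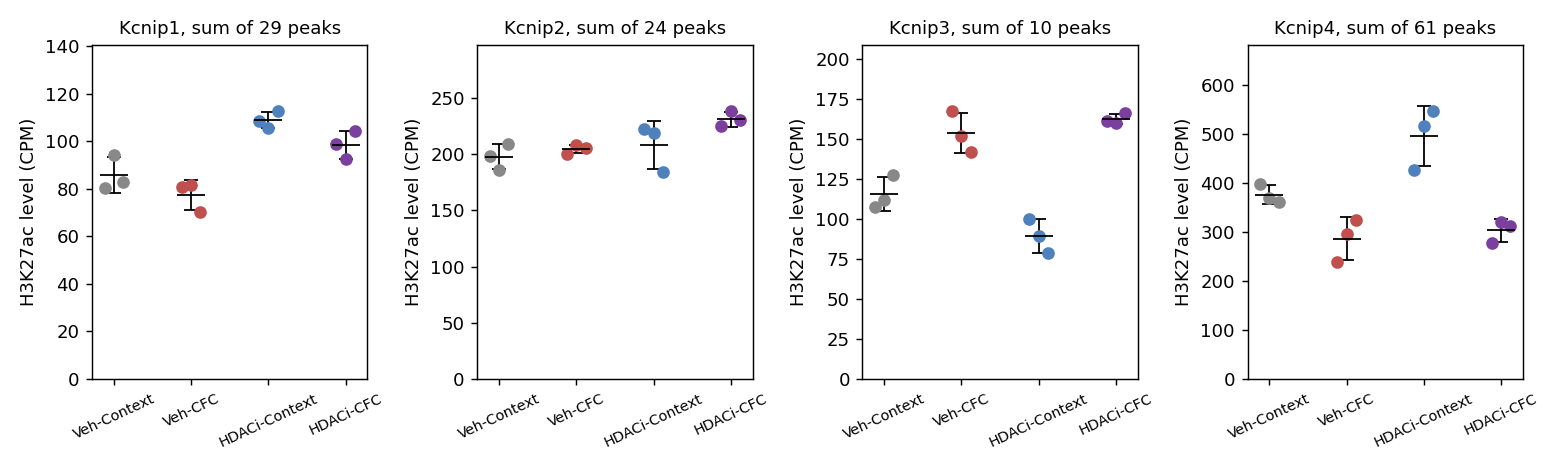
Sum of H3K27ac levels (CPM) over the peaks named for each gene, 1 point per library, with the mean and SD of 3 libraries per group. Most peaks in the Kcnip2 sum lie in Armh3. The CFC libraries lie below the Context libraries at Kcnip4 (239 to 324 against 362 to 546 CPM) and above them at Kcnip3 (142 to 167 against 78.8 to 128 CPM).

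The fall at Kcnip4 was spread over its enhancer and control peaks. Of 57 peaks away from promoters 37 fell, against 22.5% of all such peaks, and the median over the 61 peaks was -0.44. By state, 17 of 26 control peaks fell (27.6% of all control peaks did), 14 of 20 primed enhancers (21.8%) and 7 of 11 active enhancers (16.5%). Differences were below 0 at 56 of 61 peaks, against 52.5% of all peaks. At 5 Kcnip4 peaks, and at 4.50% of all peaks, every CFC library was below every Context library. Peaks of the 4 general neuronal marker genes also fell more often than they rose: of 161 peaks named for Rbfox3, Snap25, Syt1 and Map2, 76 fell and 29 rose. Markers of single neuron types varied. Of 34 CA pyramidal peaks 20 rose and 3 fell, of 69 granule neuron peaks 10 rose and 16 fell, and of 5 interneuron peaks 2 rose and 2 fell. The sums of Syt1, Map2 and Snap25 fell by 0.46 ± 0.07, 0.37 ± 0.08 and 0.26 ± 0.07 in edgeR's test, and that of Rbfox3 rose by 0.61 ± 0.08. Of the peaks named for glial markers, 12 of 33 oligodendrocyte peaks rose and 0 fell, 8 of 10 precursor peaks rose and 0 fell, 11 of 26 microglial peaks rose and 5 fell, and 5 of 49 astrocyte peaks rose and 9 fell. Their part in the fall at Kcnip4 was not tested. Many genes show a like share: of 1619 genes with at least 20 peaks, 170 had a larger share of falling peaks than Kcnip4, and the median gene had 18.9%.

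The largest fall was at chr5:49414310-49414751, in the control state. Its level was 1.79, 0.883 and 1.40 CPM in Veh-Context against 0.514, 0.424 and 0.849 in Veh-CFC, and 1.95, 1.91 and 2.24 in HDACi-Context against 0.942, 0.728 and 0.588 in HDACi-CFC. The arms overlapped through 1 HDACi-CFC library, and the difference was -1.34 ± 0.30 (edgeR, adjusted p = 0.00035). The next largest, at chr5:48461963-48462854, fell by 1.08 ± 0.20 (edgeR, adjusted p = 3.0e-05), with 3.06 to 4.26 CPM in Context and 0.899 to 2.55 in CFC and no overlap. The broad peak chr5:49407598-49413334 next to the first, named here after its values were seen, held 26.9 to 36.9 CPM in Context and 18.4 to 26.8 in CFC and fell by 0.49 ± 0.09. At the peak with the highest level per kb, chr5:49470003-49471645, levels were 7.65 to 11.0 CPM in Context and 6.30 to 8.06 in CFC, a fall of 0.43 ± 0.12 (edgeR, adjusted p = 0.0033).

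Of the 4 promoter peaks of Kcnip4, 3 had differences above 0 and 1 below. Their median was 0.37, near the 0.33 over all promoter peaks. Past the threshold were 1 rise and 1 fall, where 48.4% of all promoter peaks rose and 3.27% fell. The highest, chr5:48507715-48511203, which the deposited states call control, had 15.2 to 20.6 CPM in Context and 11.8 to 16.6 in CFC and fell by 0.28 ± 0.10 (edgeR, adjusted p = 0.019). That call was lost when any 1 of 4 libraries was left out, with adjusted p-values of 0.055 to 0.071 in edgeR. The peak chr5:48599154-48599934, which contains a whole 250-base window before a RefSeq start, had 1.09 to 1.62 CPM in Context and 1.42 to 3.36 in CFC and rose by 0.72 ± 0.24 (edgeR, adjusted p = 0.014). It missed the threshold without Veh-CFC replicate 1 (adjusted p = 0.098) or HDACi-CFC replicate 3 (adjusted p = 0.084). At the peak around the sequence shown above, chr5:49283985-49286194, levels were 4.56 to 8.41 CPM in Context and 5.51 to 6.97 in CFC, a difference of 0.07 ± 0.13 (edgeR, adjusted p = 0.70). The peaks on either side of the upstream (5′) end of the longest RefSeq model, chr5:49521386-49524756 and chr5:49525131-49526046, differed by -0.02 ± 0.10 and 0.15 ± 0.18. Neither is a promoter peak by the distance rule used here. All 4 peaks in the strong promoter state missed the threshold, with differences from -0.02 to 0.68, in a class of which 47.4% rose. The last 3 peaks were named after their values were seen.

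**Figure D3:**
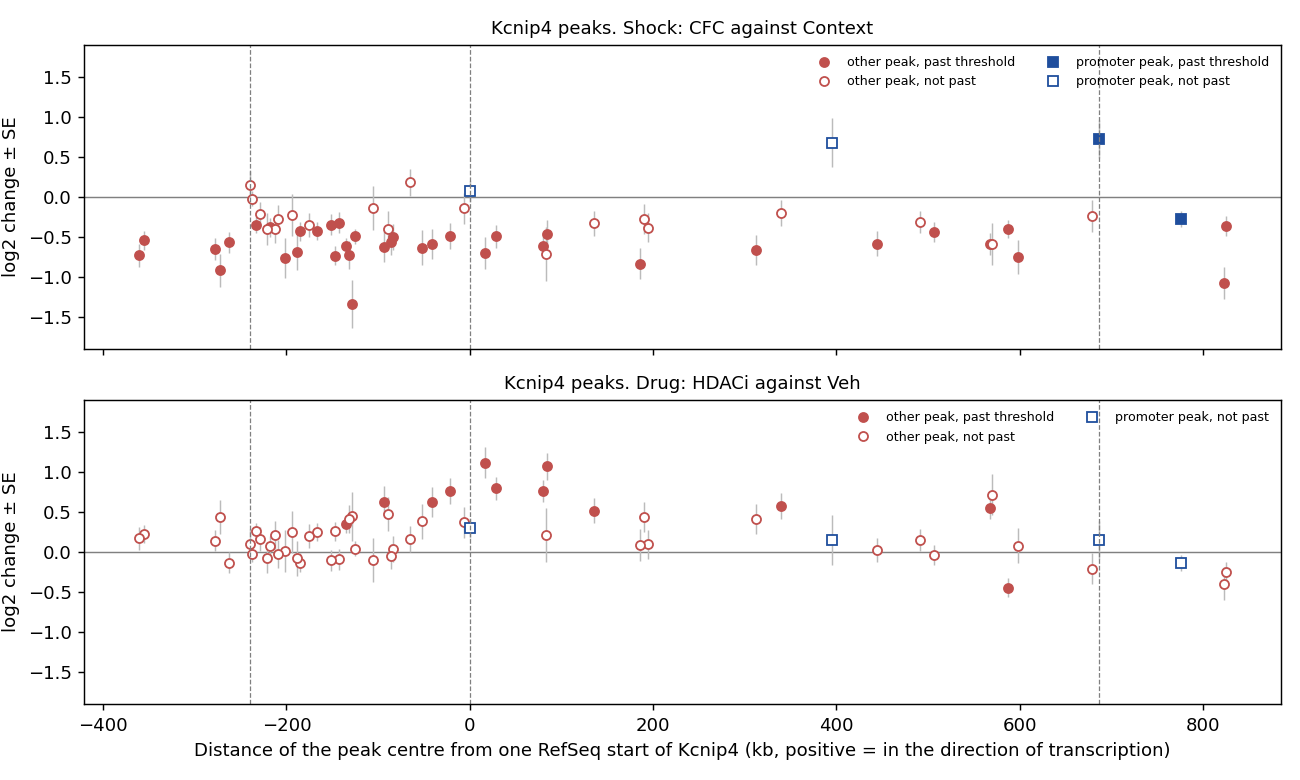
Log2 change ± SE at the 61 Kcnip4 peaks for the shock (top) and the drug (bottom), against distance in kb from 1 RefSeq start, with dashed lines at that start, a start further along the gene and the upstream (5′) end of the longest RefSeq model. Squares are promoter peaks and filled symbols passed the threshold: 38 peaks lie below 0 and are filled in the top panel, and 11 lie above 0 and are filled in the bottom panel.

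Kcnip3 rose at its promoter and at the broad enhancer next to it. The promoter peak chr2:127514215-127524401, which contains the sequence shown above, had 54.7, 61.1 and 72.3 CPM in Veh-Context and 99.3, 95.0 and 82.5 in Veh-CFC. It had 44.4, 37.8 and 30.3 CPM in HDACi-Context and 85.3, 94.1 and 90.1 in HDACi-CFC. Every CFC library was above every Context library, with a rise of 0.91 ± 0.08 (edgeR, adjusted p = 4.1e-11). The neighbouring active enhancer chr2:127500388-127513856, named after its values were seen, had 28.1 to 39.2 CPM in Context and 47.4 to 59.7 in CFC and rose by 0.66 ± 0.08. Rises of 1.09 ± 0.24 at chr2:127496501-127497557 and 1.31 ± 0.43 at chr2:127464889-127465260 came at low levels, with means of 1.62 and 0.768 CPM. The second of these lost its call under offsets that vary with the mean level, where it was 0.39 (edgeR, adjusted p = 0.43), and without HDACi-CFC replicate 3 (adjusted p = 0.070). In 3 of the 10 Kcnip3 peaks all CFC libraries were above all Context libraries, against 5.85% of all peaks. Kcnip3 has 3 promoter peaks, a class of which 48.4% rose over the whole table.

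Of the 4 peaks overlapping Kcnip2, 3 rose, 2 of them promoter peaks, a class of which 48.4% rose. The fourth, chr19:45806250-45810451, differed by 0.06 ± 0.11 (edgeR, adjusted p = 0.68). Of the 20 peaks in Armh3 2 rose and 2 fell. The highest promoter peak, chr19:45810841-45815799, had 21.1, 21.5 and 26.5 CPM in Veh-Context, 35.1, 38.4 and 32.1 in Veh-CFC, 18.6, 16.6 and 13.7 in HDACi-Context and 35.9, 37.9 and 35.9 in HDACi-CFC. The arms did not overlap, and it rose by 0.89 ± 0.09 (edgeR, adjusted p = 2.0e-10). The peak chr19:45816164-45819774, which spans the border with Armh3 and takes in 150 bp of the Kcnip2 window shown above, rose by 0.88 ± 0.12 (edgeR, adjusted p = 4.1e-07). The largest falls, -0.45 ± 0.11 at chr19:45846778-45848637 and -0.44 ± 0.15 at chr19:45829277-45831370, were both in Armh3. The second was lost with DESeq2 (adjusted p = 0.058) and without any 1 of 3 libraries.

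Kcnip1 was weakly acetylated and mixed. Its promoter peak chr11:33842384-33843374 had 1.27, 0.883 and 1.18 CPM in Veh-Context, 3.47, 2.01 and 2.12 in Veh-CFC, 1.32, 0.348 and 0.476 in HDACi-Context and 3.04, 2.29 and 3.11 in HDACi-CFC. All CFC libraries were above all Context libraries, and it rose by 1.57 ± 0.26 (edgeR, adjusted p = 5.1e-06), the largest shock difference among the 124 peaks. The repressed-state peak chr11:33738827-33739181 rose by 1.41 ± 0.45 at a mean of 0.703 CPM, and was 0.45 with offsets that vary with the mean level (edgeR, adjusted p = 0.39). The primed enhancer chr11:33771783-33773760 fell by 0.64 ± 0.13, from 6.32 to 10.3 CPM in Context to 3.73 to 6.74 in CFC (edgeR, adjusted p = 0.00018). The repressed-state peak chr11:33869534-33870266 fell by 0.89 ± 0.25 (edgeR, adjusted p = 0.0042), and the highest peak per kb, chr11:33798473-33801878, differed by -0.25 ± 0.11 (edgeR, adjusted p = 0.064).

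**Figure D4:**
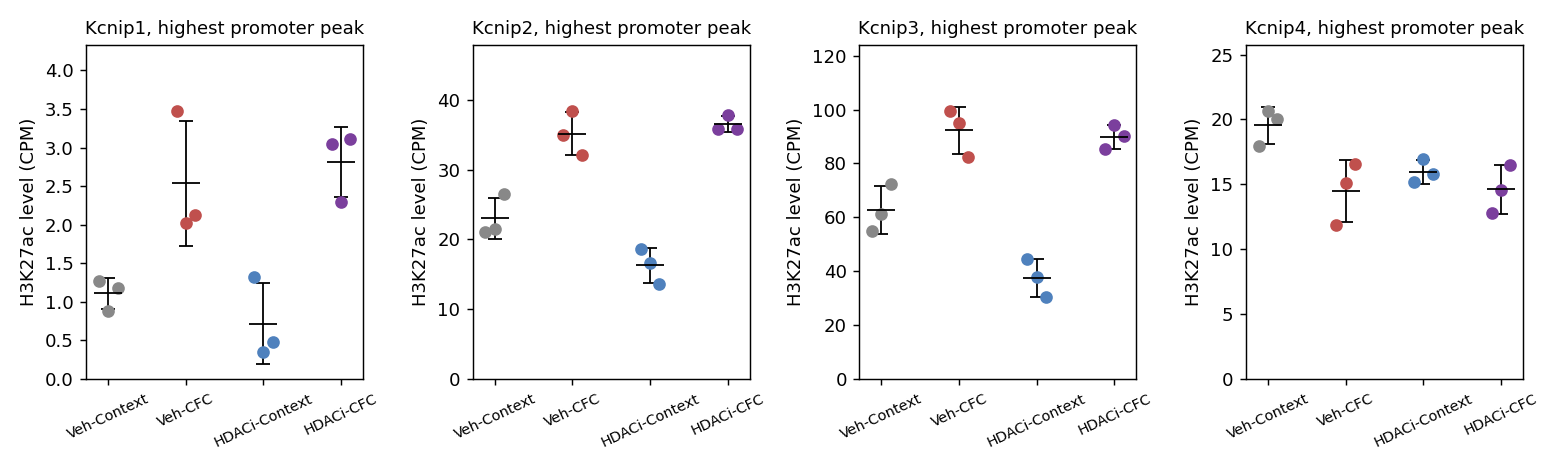
H3K27ac level (CPM) at the highest promoter peak of each gene, 1 point per library, with the mean and SD of 3 libraries per group. CFC libraries lie above all Context libraries at Kcnip1, Kcnip2 and Kcnip3, and at Kcnip4 the arms overlap (11.8 to 16.6 CPM in CFC, 15.2 to 20.6 in Context).

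Within each gene, the share of reads in promoter peaks was set against the same share over all genes. At Kcnip1 it was 4.14% ± 1.47 in CFC and 1.56% ± 0.859 in Context (SD, 6 libraries each; two-sided exact permutation test, p = 0.0022, the smallest that 924 arrangements can give; adjusted over the 4 genes p = 0.0043). At Kcnip2 it was 25.3% ± 1.38 against 16.2% ± 3.32 (exact permutation p = 0.0022, adjusted p = 0.0043), and at Kcnip4 8.01% ± 0.800 against 6.39% ± 0.938 (exact permutation p = 0.013, adjusted p = 0.017). The Kcnip2 share is over all 24 peaks named for it, of which 20 lie in Armh3. At Kcnip3 the shares of 57.6% ± 2.74 and 52.9% ± 4.95 overlapped (exact permutation p = 0.067, adjusted p = 0.067). With labels exchanged only within each drug, all 4 genes passed, Kcnip3 with an adjusted p of 0.025 by the exact permutation test. Over all peaks the share was 25.5% ± 0.642 against 20.5% ± 1.67, so the shift toward promoters was not limited to these genes.

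The shock effect was then taken in each drug arm, from libraries that the arms do not share. Under vehicle 4.41% of all peaks rose and 2.74% fell, and the Kv4 channel interacting protein genes had 4 rises and 6 falls among 124 peaks. Kcnip4 had 5 of those falls. Taking peaks by position instead, all 107 within the RefSeq spans of the 4 genes whatever gene they are named for, there were 8 rises and 4 falls under vehicle, 5 of the rises at Kcnip3 and 3 at Kcnip2. That choice was made after seeing the data and adds 10 peaks named for Fahd2a, Kcnmb1 and Oga. Under CI-994, where 20.2% of all peaks rose and 17.8% fell, they had 15 rises and 46 falls, 42 of the falls at Kcnip4. The 46 fell to 30 when HDACi-Context replicate 3 or HDACi-CFC replicate 1 was left out, and the 6 under vehicle to 2 without replicate 1 of either Veh group. Differences at Kcnip4 were negative in both arms at 53 peaks, positive in both at 3 and opposite at 5, with medians of -0.33 under vehicle and -0.61 under CI-994. For the gene sums, Kcnip4 fell by 0.39 ± 0.11 under vehicle (edgeR, adjusted p = 0.018) and by 0.71 ± 0.11 under CI-994 (edgeR, adjusted p = 5.4e-05). Kcnip3 rose by 0.41 ± 0.09 (edgeR, adjusted p = 0.011) and 0.86 ± 0.09 (edgeR, adjusted p = 1.1e-05).

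**Figure D5:**
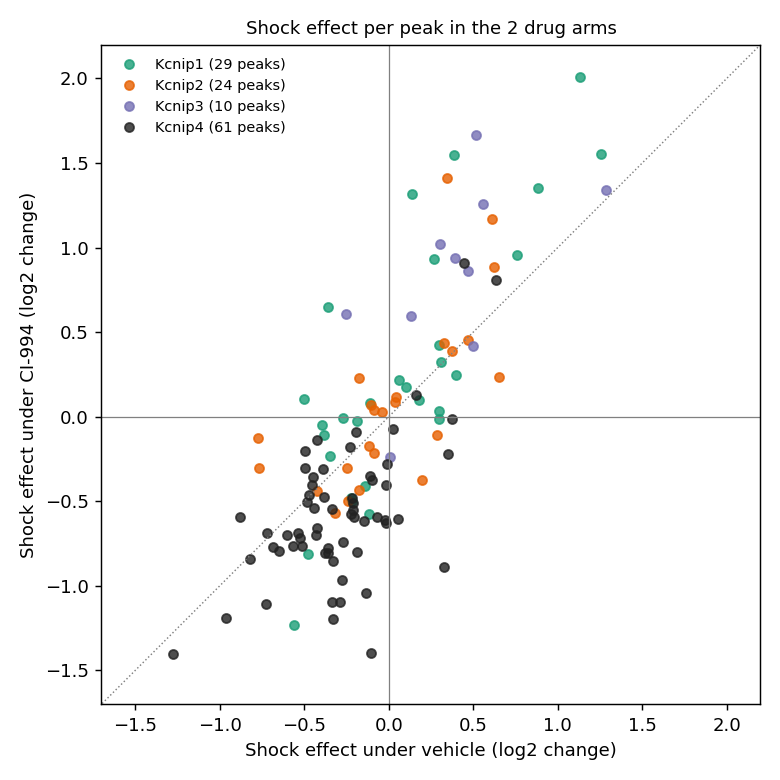
Shock effect (log2 change, CFC against Context) at each of the 124 peaks under vehicle (horizontal) and under CI-994 (vertical), coloured by gene, with a dotted line where both are equal. Of the 61 Kcnip4 peaks 53 lie in the lower left, and 8 of the 10 Kcnip3 peaks in the upper right.

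Whether the arms differ was tested by the interaction term. None of the 124 peaks passed in edgeR's quasi-likelihood test, and over all peaks 50 passed (0.0347%). At an unadjusted p under 0.05 there were 14 of the 124 peaks and 16531 of all 144014, a like share. The same test on gene sums gave -0.32 ± 0.15 for Kcnip4 (edgeR, adjusted p = 0.34) and 0.45 ± 0.13 for Kcnip3 (edgeR, adjusted p = 0.28), in a family in which no gene passed. The peaks nearest to the threshold were chr19:45816164-45819774 at Kcnip2 and the Kcnip3 promoter peak. At the first the shock difference was 0.35 ± 0.17 under vehicle and 1.41 ± 0.16 under CI-994, an interaction of 1.06 ± 0.23 (edgeR, adjusted p = 0.063). At the second it was 0.56 ± 0.12 and 1.26 ± 0.12, an interaction of 0.70 ± 0.17 (edgeR, adjusted p = 0.078). DESeq2 called both, with adjusted p-values of 0.010 and 0.015, and 872 higher peaks over the whole table where edgeR called 49.

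The drug values are those from which the genes were chosen and carry no test here. Over both behaviours 3.52% of all peaks were higher with CI-994 and 5.81% lower, and the members past the threshold were 11 higher and 1 lower at Kcnip4, 2 and 0 at Kcnip1, 2 and 0 at Kcnip2, and 0 and 2 at Kcnip3. These counts are given beside the background only as a description, and nothing is read from them. In Context mice alone (2.73% higher and 5.85% lower over all peaks) Kcnip4 had 13 and 1. In CFC mice alone (0.483% and 0.435%) it had 1 and 0. The count of 13 was 7 without Veh-Context replicate 3 and 8 without HDACi-Context replicate 3. The drug comparison in Context and the shock comparison under CI-994 share the HDACi-Context libraries, so a high level in those 3 libraries enters both. Of the 11 Kcnip4 peaks 9 also fell with the shock over both drugs, as did 38 of all 61 Kcnip4 peaks.

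The 11 peaks lay within 706 kb that hold 31 Kcnip4 peaks, and 8 of them were primed enhancers, 2 control peaks and 1 an active enhancer, of 20, 26 and 11 Kcnip4 peaks in those states. Over all peaks 6.92% of primed enhancers, 2.73% of control peaks and 3.04% of active enhancers were higher. Within 150 kb of the start at 49285659, a distance chosen after the values were seen, 9 of 23 Kcnip4 peaks were past the threshold and higher, with a median difference of 0.39 over the 23, against 2 of 38 elsewhere, with a median of 0.10. Since the window follows the same drug values, this is a description and nothing is read from the contrast. The largest difference was at chr5:49268374-49269498, an intronic primed enhancer. Its level was 2.39, 2.06 and 2.21 CPM in Veh-Context, 1.16, 1.59 and 1.27 in Veh-CFC, 3.89, 5.10 and 5.44 in HDACi-Context and 2.75, 2.18 and 3.95 in HDACi-CFC. The drug difference was 1.12 ± 0.19, with 1.10 ± 0.24 in Context and 1.13 ± 0.31 in CFC, and the peak fell with the shock by 0.70 ± 0.20 (edgeR, adjusted p = 0.0037). HDACi-Context libraries were the highest of all 12 there, apart from 1 HDACi-CFC library at 3.95 CPM that exceeded the lowest of them.

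The primed enhancer chr5:49200817-49202016 was named after its drug values were seen, and nothing is read from it. It had 4.26, 2.80 and 2.72 CPM in Veh-Context, 1.54, 2.33 and 3.40 in Veh-CFC, 5.35, 7.65 and 7.82 in HDACi-Context and 5.22, 5.93 and 4.12 in HDACi-CFC. The drug difference there was 1.07 ± 0.17, the same in Context (1.07 ± 0.22) and in CFC (1.07 ± 0.26). Just past the threshold stood chr5:49378313-49379138 at 0.63 ± 0.20, and just short of it chr5:48715183-48715748 at 0.72 ± 0.26. The 1 lower Kcnip4 peak, chr5:48696652-48699732, differed by -0.44 ± 0.12. At the promoter peak between the higher ones, chr5:49283985-49286194, the difference was 0.30 ± 0.13.

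At the other genes the drug differences were 0.52 ± 0.17 at the Kcnip1 primed enhancer chr11:33848297-33849655 and 0.41 ± 0.11 at the Kcnip2 control peak chr19:45806250-45810451. At the Kcnip2 promoter peak chr19:45810841-45815799 it was -0.51 ± 0.13 in Context and 0.05 ± 0.12 in CFC, and at chr19:45816164-45819774 -0.54 ± 0.17 and 0.52 ± 0.16. At the Kcnip3 promoter peak the difference was -0.39 ± 0.08, made up of -0.74 ± 0.12 in Context and -0.04 ± 0.12 in CFC. At chr2:127464889-127465260 it was -1.34 ± 0.43. As sums, the drug differences were 0.35 ± 0.06 for Kcnip1, 0.12 ± 0.06 for Kcnip2, -0.15 ± 0.07 for Kcnip3 and 0.24 ± 0.08 for Kcnip4.

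The other parts of the Kv4 complex were set beside these genes as gene sums over both drugs. Kcnd1, Kcnd2 and Kcnd3 encode the pore subunits and Dpp6 and Dpp10 the transmembrane auxiliary subunits. In edgeR's test the sums of 4 of the 5 fell: Kcnd2 by 0.45 ± 0.07, Kcnd3 by 0.33 ± 0.06, Dpp6 by 0.17 ± 0.06 and Dpp10 by 0.35 ± 0.10. The sum of Kcnd1, which has 1 peak, rose by 0.74 ± 0.23. By peaks, 31 of 102 fell and 5 rose, 15 of the falls among the 23 Kcnd2 peaks. In all, 29.3% of gene sums and 19.7% of peaks fell. The highest promoter peaks of Dpp6 and Dpp10 rose where their sums fell, by 0.41 ± 0.08 and 1.34 ± 0.29. The single Kcnd1 peak is a promoter peak and rose by 0.87 ± 0.21 in the fit over peaks, and the highest promoter peaks of Kcnd2 and Kcnd3 differed by 0.15 ± 0.09 and 0.19 ± 0.09 without passing.

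Among 7 related neuronal calcium sensors the sums of 5 rose and 1 fell, while of their 94 peaks 24 rose and 25 fell, with a median of -0.15, against 30.3% and 29.3% of all gene sums and 21.4% and 19.7% of all peaks. Ncs1, the family's widely expressed member, rose by 1.00 ± 0.12, and Hpca, hippocalcin, by 0.73 ± 0.09. Rcvrn, the recoverin gene, rose by 0.43 ± 0.06, Hpcal4 by 0.20 ± 0.06 and Hpcal1 by 0.18 ± 0.07, while Ncald fell by 0.25 ± 0.06 and Vsnl1 differed by 0.03 ± 0.07. Peaks of these genes were taken by their deposited name, and whether they lie in the named gene was not checked. The Rcvrn sum was at 4.76 CPM per kb and its highest promoter peak at 2.03. Among known targets of Kcnip3, the sum of Pdyn, the prodynorphin gene that DREAM is known to repress, fell by 0.25 ± 0.07 in edgeR's test, and the sums of Fos and Slc8a3 did not pass (adjusted p = 0.95 and 0.54). The highest promoter peak of Pdyn rose by 0.61 ± 0.14, as did those of Fos by 0.60 ± 0.13 and Slc8a3 by 0.73 ± 0.16. All of these stand against the 48.4% of promoter peaks that rose over the whole table.

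The promoter peaks most like each member over the 12 libraries were found by the root mean square difference of mean-centred log2 CPM, among the highest promoter peaks of other genes. For the Kcnip3 promoter peak they were Celf3 (0.068), Orai2 (0.070) and Dtx3 (0.074), where the median over all genes was 0.46. For Kcnip2 they were Rph3a (0.084), Syt7 (0.084) and Orai2 (0.085), with a median of 0.43. For Kcnip1 they were Mfsd10 (0.18), Aldh3b1 (0.20) and Sall1 (0.20), with a median of 0.75, and for Kcnip4 Lamb3 (0.088), Tmx4 (0.11) and Pde6b (0.12), with a median of 0.45. Among peaks away from promoters, the Kcnip4 peak at chr5:49268374-49269498 was most like peaks named for Dtnbp1 (0.20), Mir3961 (0.21) and Noc3l (0.22), with a median of 0.70.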

How the data were processed

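H3K27ac was measured in 12 libraries (4 groups of 3). The authors deposited raw read counts per peak, not normalised, with the nearest gene, the peak width and start-site distance in bp, and a chromatin state with a percent that was not used. Per the submitters' processing notes, HOMER 4.11, MACS2, Trimmomatic 0.38, SAMtools 1.9, DESeq2 1.28.1, Bowtie2 2.3.5 and DiffBind 2.16.2 were used with build mm10 (settings, and whether peaks were called on pooled samples, not given in the sources used here). No count is below 1, and 3620 values are 1, so a 1 may be a floor. The series text gives other numbers of treatments and replicates than the sample labels, and the labels were followed. RefSeq tables gave gene spans and promoters, and all 4 genes matched by symbol.

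Counts were fitted in R 4.3.3 with edgeR 4.0.16 (TMM, minimum count 10, robust quasi-likelihood, 1 term per group, 12 libraries together, Benjamini-Hochberg under 0.05). The filter kept 144014 peaks, all 124 members among them, and the median biological coefficient of variation was 0.130. Gene sums add all peaks of a gene and were fitted alike. Log2 changes come with edgeR-based standard errors. The fit was tested on simulated data. Alternatives were DESeq2 1.42.0, library totals, offsets that vary with the mean level (loess), no filter, a replicate block, each library left out, and other promoter distances; limiting members to peaks in their own gene, and taking all peaks within the 4 genes, were added after seeing the data. Replicate numbers did not pair the libraries (correlations of same-numbered libraries -0.28 to 0.35). Named peaks are, per gene, the highest promoter peak, up to 2 largest rises and falls with the shock among peaks past the threshold, the largest drug difference each way among peaks past the threshold, and the highest peak per kb. Members, lists and rules were chosen with earlier results of these data known. Some genes of the list of Kcnip3 targets and partners are not reported here.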

Additional observations from a re-analysis of the deposited data

How the results depend on the processing

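Over both drugs, the 18 rises and 42 falls with the shock over the 4 genes together stayed within 1.5 times under every alternative and every left-out library. Taken gene by gene, Kcnip1 went from 7 rises and 2 falls to 4 and 6 with library totals, and the Kcnip2 median from -0.01 to between -0.09 (library totals) and 0.03 (loess offsets). Under vehicle, peaks taken by position gave 8 rises against 4, and peaks within their own gene 4 rises and 4 falls. The Kcnip3 and Kcnip4 sums kept their calls throughout. The replicate block moved no count of members by over 1.5 times except drug-lower peaks in Context, 3 with the block against 5, and brought 3 values at named peaks past the threshold and lost none; the libraries share only a number. DESeq2 gave 3 there and library totals 2. In the interaction DESeq2 gave 2 higher peaks against 0. In CFC, drug-higher peaks numbered 0 with DESeq2 and 2 with loess offsets against 1. The Kcnip2 sum passed with library totals (0.14, edgeR adjusted p = 0.031) and loess offsets (0.19, adjusted p = 0.0048), and the Kcnip3 promoter share passed when only peaks reaching the start site counted (difference of 5.35 percentage points, exact permutation, adjusted p = 0.041). Causes were not tested.

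Leaving out 1 library at a time gave these ranges for counts of members: shock under vehicle, 1 to 5 rises and 2 to 10 falls; shock under CI-994, 30 to 48 falls; interaction, 0 to 3 higher and 0 to 1 lower; drug over both behaviours, 1 to 5 lower; drug in CFC, 0 to 3 higher; drug in Context, 7 to 18 higher and 1 to 6 lower. The Kcnip1 sum ranged from -0.17 to -0.095, passing without Veh-Context replicate 1 or HDACi-CFC replicate 3. The Kcnip2 sum ranged from 0.06 to 0.13 (log2), and the Kcnip3 promoter share difference from 3.25 to 5.83 points, passing without Veh-Context replicate 2 or 3. Over all alternatives together, 43 values at single named peaks lost and 30 gained their call and 1355 did neither, of which leaving out 1 library accounts for 32, 21 and 955. Low peaks such as chr11:33738827-33739181, at a mean of 0.703 CPM, rest on few reads in libraries of 6639158 to 16734757 reads in peaks.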
